A study of Mus musculus with 2 samples.

Results

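The glucocorticoid receptor gene Nr3c1 and 4 of its well known target genes, Tsc22d3, Per1, Ddit4 and Fkbp5, were described in open chromatin of the young mouse thymus. The 5 genes were picked by name out of 21938 protein-coding genes of GENCODE M21. Every DNase peak and footprint inside each gene body and the 50 kb on either side was taken, a stretch called the territory of the gene. DNase-seq cuts the DNA of nuclei with the enzyme DNase I, a peak is a stretch cut more than its surroundings, and a footprint is a short protected stretch inside such DNA. There were 2 libraries in a single group, both from thymus tissue of B6CASTF1/J females aged 10 days, first-generation offspring of a C57BL/6J and CAST/EiJ cross. The labels call the libraries biological replicates 1 and 2 from separately numbered females but give both the same donor identifier. The labels name no treatment and no control group, so no test between conditions was possible, and each value is given per library. In bulk tissue, a lower peak in every cell and a peak in fewer cells cannot be told apart.

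The glucocorticoid receptor is a nuclear receptor that waits in the cytoplasm in a complex with Hsp90 chaperones. Once it binds hormone it enters the nucleus and binds response elements, imperfect inverted repeats of a hexamer with a short spacer, from which it activates or represses genes nearby. In the thymus, glucocorticoids are best known for driving immature thymocytes into apoptosis. Nr3c1 is transcribed from several alternative first exons that are spliced to the same coding exons. Tsc22d3 encodes GILZ, a leucine zipper protein that dampens inflammatory signalling, Per1 a repressor of the circadian clock, Ddit4 an inhibitor of the mTOR kinase complex, and Fkbp5 a co-chaperone that lowers the affinity of the receptor for its hormone.

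For each of the 4 target genes, the 200 bases directly upstream of a start are shown, since in replicate 2 the highest promoter peak of the gene overlapped them. In replicate 1 the same held except at Per1-202, where the peak ended before the stretch began. The Per1-201 stretch is added because it lies between the Per1 response element sites given below. Here and below, sequences and matches are those of the GRCm38.p6 assembly alone, and differences between the parental strains were not examined. The stretches are written 5′ to 3′ on the strand of the gene, and capitals mark bases inside footprints of both libraries. They lie at chr10:59951835-59952034 for Ddit4-201 (minus strand), chr11:69095017-69095216 for Per1-202 and chr11:69098748-69098947 for Per1-201 (plus strand), chr17:28486150-28486349 for Fkbp5-201 (minus strand) and chrX:140543188-140543387 for Tsc22d3-201 (minus strand). The last of these is also exonic in a non-coding transcript model of Tsc22d3, and the other stretches touch no annotated exon.
Ddit4-201: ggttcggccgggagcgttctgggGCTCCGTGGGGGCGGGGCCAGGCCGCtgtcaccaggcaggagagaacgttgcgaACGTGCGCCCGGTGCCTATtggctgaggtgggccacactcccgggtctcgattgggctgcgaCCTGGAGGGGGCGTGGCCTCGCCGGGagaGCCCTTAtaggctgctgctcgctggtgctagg
Per1-202: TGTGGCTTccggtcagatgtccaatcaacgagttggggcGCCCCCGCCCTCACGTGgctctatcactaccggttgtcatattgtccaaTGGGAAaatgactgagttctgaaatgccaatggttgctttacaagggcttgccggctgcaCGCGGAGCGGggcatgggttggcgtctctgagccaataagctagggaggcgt
Per1-201: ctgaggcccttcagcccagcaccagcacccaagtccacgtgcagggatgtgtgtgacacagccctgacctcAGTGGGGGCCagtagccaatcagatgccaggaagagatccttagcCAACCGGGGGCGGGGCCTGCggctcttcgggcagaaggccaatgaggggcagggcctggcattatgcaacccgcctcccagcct
Fkbp5-201: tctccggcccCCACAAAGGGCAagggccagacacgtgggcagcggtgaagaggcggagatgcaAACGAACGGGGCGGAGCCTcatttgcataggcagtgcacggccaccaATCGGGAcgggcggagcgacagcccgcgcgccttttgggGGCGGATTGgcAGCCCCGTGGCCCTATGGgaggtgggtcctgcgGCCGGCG
Tsc22d3-201: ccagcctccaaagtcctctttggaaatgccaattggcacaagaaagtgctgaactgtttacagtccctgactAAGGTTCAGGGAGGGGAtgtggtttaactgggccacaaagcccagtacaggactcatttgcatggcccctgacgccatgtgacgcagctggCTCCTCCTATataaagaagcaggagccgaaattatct
In the Ddit4 stretch 78 of the 200 bases lay in footprints of both libraries, in Fkbp5 72, in Per1-202 41, in Per1-201 30 and in Tsc22d3 27. The GC box GGGCGG, the sequence bound by Sp family factors, lay inside capitals in 4 stretches and was absent from that of Tsc22d3. On either strand, 31.0% of 32851 RefSeq promoter stretches of the same length held it. The E-box CACGTG, the sequence bound by the activators of the circadian clock, lay inside capitals in Per1-202 and outside them in Per1-201 and Fkbp5-201, against 5.26% of the RefSeq stretches. None of the 5 stretches held the receptor hexamer AGAACA on either strand, which 12.9% of the RefSeq stretches held.

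Response elements were searched as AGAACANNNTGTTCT, which is its own reverse complement, and mismatches were counted over the 12 fixed bases. Matches of at most 1 mismatch numbered 5 in the Fkbp5 territory, 3 in that of Per1, 2 each in those of Ddit4 and Tsc22d3, and 0 in that of Nr3c1. The sites below are shown because they are the matches of at most 1 mismatch whose bases had a deposited false discovery rate (FDR) of the cut rate under 0.05 in a library, together with the 2 perfect matches without such bases. Each is given on the plus strand with 7 bases on either side, and capitals mark fixed bases that match.
Ddit4 distal, chr10:59974266-59974294: cagagccAGAACAcaaTGTTCTcagctca
Ddit4 territory, Anapc16 start region, chr10:59997714-59997742: gtccagaAtAACActgTGTTCTgttccca
Per1 intron, upstream site, chr11:69097069-69097097: agccaagAGAACAcgaTGTTCcctagtgc
Per1 intron, downstream site, chr11:69099409-69099437: tcaggctgGAACAtccTGTTCTcagcgct
Fkbp5 intron, first site, chr17:28420314-28420342: agagcacAGAACAcccTGTTCTgaatgtg
Fkbp5 intron, second site, chr17:28442412-28442440: aaagcctAGAACAagcTGTTCTcaaacaa
The Ddit4 distal site was a perfect match 22446 bp upstream of the Ddit4 start. It lay in an intergenic region, chr10:59974161-59974580, under a peak of height 4.78 in replicate 1 and 3.55 in replicate 2. Perfect matches lay in 9 of the 139912 regions that the peaks of both libraries formed across the genome (0.00643%), of 639 perfect matches in the genome. The regions covered 32926 kb of the 2647520 kb of genome sequence searched. No footprint touched the Ddit4 site in either library, although the region held 10 footprints in replicate 1 and 3 in replicate 2.
The Per1 upstream site, with 1 mismatch, lay 1865 bp upstream of the Per1-201 start in an intron of the longer transcript. It sat on the edge of a region at chr11:69097081-69097300 with heights of 4.48 and 3.60. The peak of replicate 2 held 10 of its 15 bases and that of replicate 1 began past it, so it was not counted as a match inside a region. This site was picked out after its values were seen. The Per1 downstream site lay 475 bp past the same start and 415 bp from the nearest peak. All bases of both Per1 sites had an FDR under 0.05 in both libraries, and neither site was footprinted. Since these sites were picked for such an FDR in a library, that value was partly set by the choice. The 2 perfect matches in Fkbp5 introns lay outside peaks, 1080 and 307 bp from the nearest region, and none of their bases had an FDR under 0.05 in either library.

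The libraries differed in how many peaks they listed. Replicate 1 held 132737 peaks with a median height of 0.625 and replicate 2 held 69798 with a median of 0.828, where height is the deposited signal of a peak and carries a single scaling factor per library. Deposited footprints numbered 375374 and 210014. The thymocyte markers Cd3e, Cd4, Cd8a, Rag1, Bcl11b and Ptcra all had a promoter peak in both libraries, and the 3 hepatocyte and 3 B cell markers had none in either. Of the thymic epithelial markers, Foxn1 and Psmb11 had none, and Epcam and Ccl25 had one in both. So did 3 of 3 mesenchymal, 2 of 3 endothelial and 2 of 3 myeloid markers. Which cells held each peak described here was not tested.

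All 5 genes had a promoter peak, here a peak within 500 bp of an annotated start, in both libraries. Across protein-coding genes 63.4% had one in replicate 1 and 57.8% in replicate 2. Ddit4 had the highest, with 13.4 in replicate 1 and 21.7 in replicate 2 (17.5 ± 5.90, SD, n = 2). Per1 followed with 11.9 and 15.1 (13.5 ± 2.30, SD, n = 2). Both stood above the other 3 genes in both libraries. Of genes with a promoter peak, 96.4% in replicate 1 and 99.7% in replicate 2 were at or below Ddit4. Fkbp5 reached 7.46 and 8.92 (8.19 ± 1.03, SD, n = 2) and Nr3c1 8.15 and 7.03 (7.59 ± 0.792, SD, n = 2). Fkbp5 and Nr3c1 changed places between the libraries and did not differ beyond their spread. Tsc22d3 was lowest, with 3.38 and 2.66 (3.02 ± 0.503, SD, n = 2), below the median of 4.30 and 4.07 over genes with a promoter peak. Tsc22d3 lies on the X chromosome. There the median over all single promoter peaks, rather than the highest per gene, was 0.996 and 1.14, against 1.60 and 1.69 on the autosomes. Whether this bears on the height at Tsc22d3 was not tested.

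**Figure D1:**
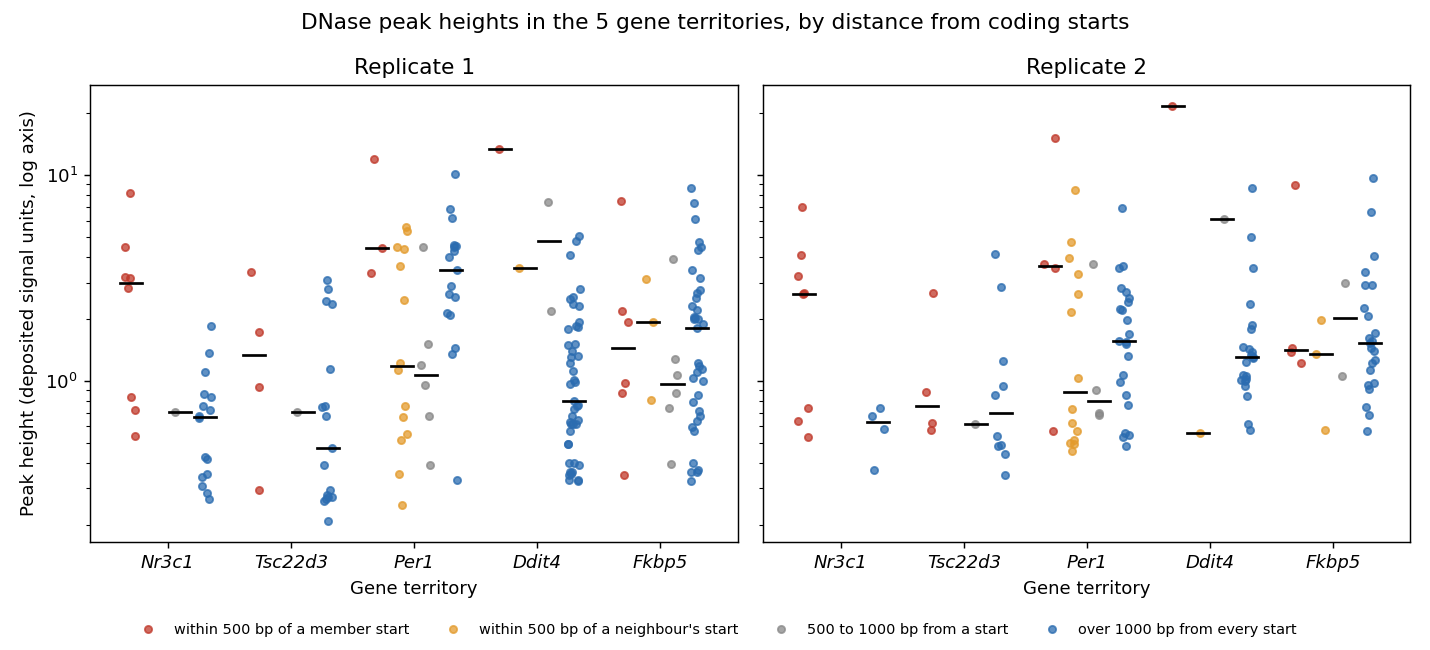
Height of each joined region (deposited signal units, log axis) in the territory of each gene, in replicate 1 (left) and replicate 2 (right), coloured by distance from starts of protein-coding genes. Each point is a region with a peak in that library and each black bar a median. The single red point of Ddit4 is the highest in both panels, at 13.4 and 21.7.

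The receptor gene itself, Nr3c1 (chr18:39410545-39519421, minus strand), had 9 annotated transcripts whose starts formed 6 clusters when starts at most 200 bp apart were joined. Each of the 6 clusters had a peak within 500 bp in both libraries. Over all protein-coding genes, 38.0% of 58865 start clusters had one in replicate 1 and 33.0% in replicate 2. The farthest upstream start, at 39519421 (Nr3c1-209), stood alone 32189 bp upstream of the last cluster. A peak covered it, with a height of 3.20 in replicate 1 and 2.64 in replicate 2. The other 5 clusters lay within 4067 bp of the last, and 3 of them lay in a nearly unbroken run of regions from 39489421 to 39491800. Beside the farthest upstream start were a region at 39519581-39519860, seen in replicate 2 alone at 0.637, and one at 39518241-39518540, seen in replicate 1 alone at 0.706.

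The heights differed from start to start, and the 2 highest peaks were the same in both libraries. The highest peak, 8.15 and 7.03, did not cover a GENCODE start. It lay in an intron of the longest transcript at 39491601-39491800 in replicate 1 and 39491561-39491760 in replicate 2, upstream of the cluster at 39491299-39491301 (Nr3c1-205 and Nr3c1-207) by 300 and 260 bp. A RefSeq model starts at 39491917, also within 500 bp of it. Nearest to the 39491299-39491301 cluster itself was a peak of 2.92 in replicate 1 and 3.22 in replicate 2. The start at 39490674 (Nr3c1-203) was covered by peaks of 2.51 and 3.17. At the cluster 39489846-39489888 lay the second highest peak, 4.48 and 4.10. It covered the start of Nr3c1-208 in both libraries and that of Nr3c1-201 in replicate 2 alone. For the start at 39489283 (Nr3c1-206) the nearest peaks were 0.834 at a distance of 103 bp in replicate 1 and 2.66 at 138 bp in replicate 2, so no peak covered that start. In replicate 1 the region at 39489421-39489740 reached 2.84. The most downstream cluster, 39487232-39487245 (Nr3c1-202 and Nr3c1-204), had the weakest peaks, 0.718 and 0.736, and in replicate 2 its peak was missing from the stricter peak file. Of the bases within 250 bp of that cluster, 51.9% and 42.8% had an FDR under 0.05, against 100% at each of the other 5 clusters in both libraries. Downstream of it, a region at 39486542-39486880 had 0.539 and 0.533.

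**Figure D2:**
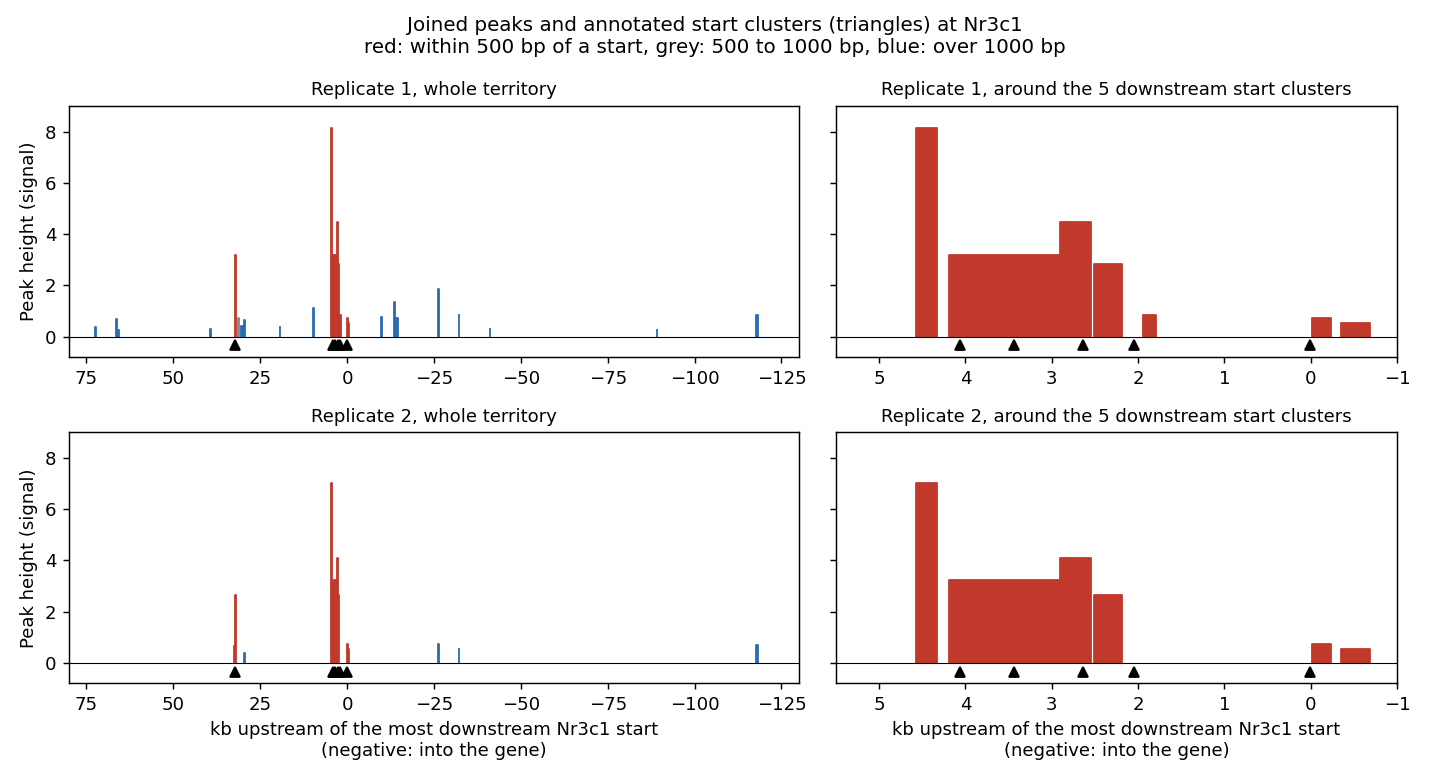
Height of joined peaks along Nr3c1 against distance in kb from the most downstream start, for the whole territory (left) and around the 5 downstream start clusters (right), in replicate 1 (top) and replicate 2 (bottom). Bars span each joined region at its highest peak, and triangles mark start clusters. The bar upstream of all 5 clusters reaches 8.15 and 7.03, and the start farthest upstream carries 3.20 and 2.64.

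Of 16 distal regions, over 1000 bp from every start of a protein-coding gene, 4 were present in both libraries and 12 in replicate 1 alone. Thus 25% of the distal Nr3c1 peaks of replicate 1 and 100% of the 4 of replicate 2 were overlapped by the other library, against 35.5% and 83.2% of distal peaks over all genes. The highest of the shared ones lay in a Nr3c1 intron at 39460901-39461100, with 1.85 and 0.736. The others were an intronic region at 39454961-39455140 with 0.863 and 0.585, a region in an Arhgap26 intron at 39369101-39369420 with 0.834 and 0.678, and an intronic region at 39516541-39516760 with 0.660 and 0.371. All 4 were below the 2 highest promoter peaks of the gene in both libraries. No region of the territory held a response element match of at most 2 mismatches, although the territory itself held 12 such matches.

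At Tsc22d3 (chrX:140539528-140600659, minus strand) the peaks separated a short and a long transcript. The cluster at 140543101-140543187, which starts the short Tsc22d3-201, was covered by the highest peak, 3.38 and 2.66. The long Tsc22d3-203 starts at 140600659, and the highest peak within 500 bp of it was 1.73 at a distance of 142 bp in replicate 1 and 0.626 over the start in replicate 2. The region that held the former, at 140600801-140601040, had 0.579 in replicate 2, and the region that held the latter, at 140599821-140600660, had 0.295 in replicate 1. A region 959 bp inside the long transcript, at 140599181-140599700, had 0.706 and 0.620. The cluster at 140548338-140548529 between them had no peak within 500 bp and no base with an FDR under 0.05 within 250 bp in either library. A last start at 140542668 lay beside the peak of the short transcript and had a nearest peak of 0.938 and 0.886.
Some distal regions of Tsc22d3 were about as high as its promoter. The region at 140505781-140506080, 36737 bp downstream of the nearest start, had 3.10 and 4.14, and the region at 140520261-140520500 had 2.43 and 2.85. In replicate 2 both were above the promoter peak, and in replicate 1 both were below it. Weaker in replicate 2 were a downstream region at 140503981-140504240, with 2.79 and 1.25, and an intronic region at 140544741-140544940, 1654 bp upstream of a start, with 2.36 and 0.944. No region held a response element match of at most 2 mismatches, while the territory held 21.

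Per1 (chr11:69095217-69109960, plus strand) had 4 start clusters, all with a peak within 500 bp in both libraries, beside 38.0% and 33.0% of all clusters. The start of the longest transcript, Per1-202 at 69095217, had the highest, 11.9 and 15.1. In replicate 2 that peak covered the start, and in replicate 1 it ended 217 bp upstream. The start of Per1-201 at 69098948 was covered by peaks of 3.34 and 3.53, and the cluster at 69100152-69100158 by peaks of 4.40 and 3.69. The cluster at 69100509-69100522 had no peak over it, the nearest being 349 bp away in replicate 1 and a weak peak of 0.568 at 104 bp in replicate 2. Intronic regions at 69095801-69096080, with 1.51 and 0.695, and at 69098121-69098420, with 0.950 and 0.898, lay within 1000 bp of starts.
The 114744 bp of the Per1 territory also hold starts of Aurkb, Borcs6, Tmem107, Vamp2, Hes7, 9130213A22Rik, Aloxe3 and Alox12b. The peaks of the territory cannot be assigned to Per1 by position. It had 40 peaks in replicate 1 and 46 in replicate 2, the single territory with more in replicate 2. The highest distal region, at 69063021-69063200 and 32106 bp upstream of Per1 near Borcs6, had 10.1 and 6.95. A region in a Tmem107 exon at 69073101-69073320, 107 bp from an annotated start of another kind of gene, had 6.20 and 2.84. Downstream, the intergenic regions at 69118761-69119100 and 69110841-69111020 had 6.82 and 2.20, and 4.59 and 3.55.

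Ddit4 (chr10:59949669-59951834, minus strand) is 2166 bp long with 1 annotated start, and its promoter peak covered that start. A further peak inside the gene at 59950721-59950980, 854 bp from the start, had 7.40 and 6.13. Upstream, a region at 59952381-59952760, 547 bp from the start, was seen in replicate 1 alone at 2.19. The territory was the most crowded of the 5 per length in replicate 1, with 53.8 peaks per 100 kb, and the second in replicate 2, with 26.4. The median over protein-coding genes was 8.57 and 4.84. Of the 45 distal regions 22 were present in both libraries, and the other 23 in replicate 1 alone. Of the distal peaks, 51.0% in replicate 1 and 100% in replicate 2 were overlapped by the other library, beside the 35.5% and 83.2% over all genes. By the mean of both libraries the 4 highest shared ones were intergenic. These were the regions at 59899601-59899980 with 5.07 and 8.61, at 59911161-59911400 with 4.07 and 4.99, and at 59902061-59902300 with 2.81 and 2.36, between 40553 and 52043 bp downstream towards Dnajb12, and the upstream region with the perfect response element, with 4.78 and 3.55. The last was above the region at 59911161-59911400 in replicate 1 and below it in replicate 2. A neighbouring region at 59974701-59975180, in replicate 1 alone at 1.79, held a match with 2 mismatches. The third match, in the region at 59997721-59997920 by the Anapc16 start, lay under a peak of 3.55 in replicate 1. In replicate 2 the region had a peak of 0.556 that did not reach the match.

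Fkbp5 (chr17:28399094-28517527, minus strand) had 15 annotated transcripts in 8 start clusters, of which 4 had a peak in replicate 1 and 2 in replicate 2. The cluster at 28486093-28486149 had the highest, 7.46 and 8.92. This peak covered the start of Fkbp5-201 in both libraries and that of Fkbp5-214 in replicate 1 alone. The outermost cluster, 28517514-28517527, had peaks of 2.17 and 1.38 at 414 and 434 bp inside the gene, and a peak of 0.979 over the starts in replicate 1. A region at 28517681-28517900 was seen in replicate 2 alone at 1.22. Farther upstream, 694 bp from that cluster, a region at 28518221-28518640 had 3.93 and 2.98. The remaining clusters had no peak in either library, or in replicate 1 alone one of 0.869 at 28511357 and one of 0.347 at 28418504-28418527. The region at 28485009-28485800, 293 bp inside from the start of Fkbp5-214, had 1.92 and 1.44. Within 1000 bp of Fkbp5 starts 4 further regions were seen in replicate 1 alone, with 1.07 at 28516281-28516820, 0.869 at 28486786-28486978, 0.735 at 28510530-28510730 and 0.394 at 28419101-28419240.
The highest peak of the Fkbp5 territory was not at a start of Fkbp5 in either library. A pair of regions lay 5194 and 5674 bp upstream of its outermost start, at 28522621-28522820 with 8.60 and 6.58 and at 28523041-28523360 with 7.28 and 9.64. Both touch exons of the long non-coding RNA genes E230001N04Rik and Gm20109 and cover a start of a gene that is not protein-coding, so they are distal from protein-coding starts alone. In replicate 1 the former and in replicate 2 the latter was above the promoter peak. The second of them held a response element match with 2 mismatches, at 28523177-28523191, which no footprint touched. A further match with 2 mismatches, at 28488336-28488350, lay in an intronic peak of 1.99 and 1.22, and a footprint of replicate 2 covered 3 of its bases. Regions towards Tulp1 at 28373921-28374120, with 6.09 and 3.39, and towards Armc12 at 28528081-28528280, with 4.73 and 2.91, were the next highest by the mean of both libraries. In replicate 2 a region at 28374541-28374800 was above both of them with 4.06, beside 3.45 in replicate 1.

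**Figure D3:**
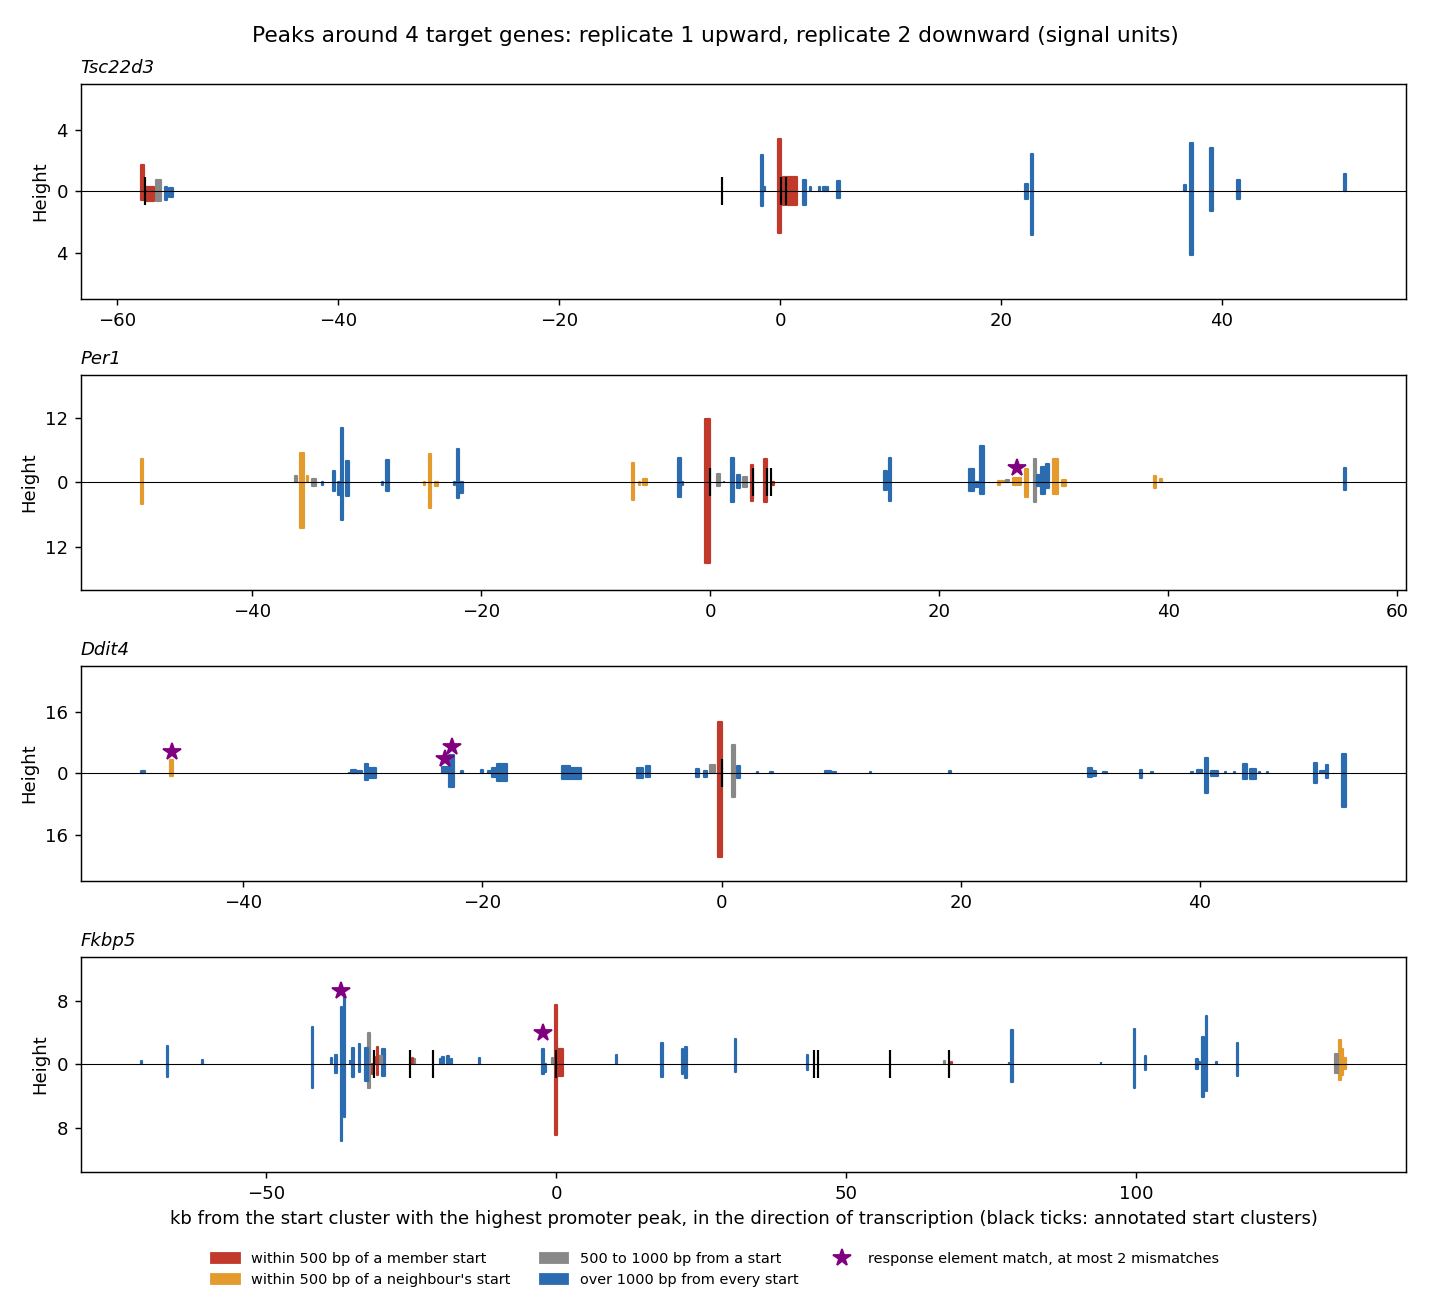
Height of joined regions around each of the 4 target genes against distance in kb from the start cluster with the highest promoter peak, with replicate 1 drawn upward and replicate 2 downward. Black ticks mark start clusters and stars the 6 regions with a response element match of at most 2 mismatches. At Fkbp5 the upstream regions reach 8.60 in replicate 1 and 9.64 in replicate 2 beside promoter peaks of 7.46 and 8.92, and at Ddit4 the promoter stands at 13.4 and 21.7.

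Over the 5 territories the start clusters with a peak numbered 18 of 23 in replicate 1 (78.3%) and 16 of 23 in replicate 2 (69.6%), beside the 38.0% and 33.0% of all clusters. All territories together held 197 and 140 peaks. Of these, 61.9% in replicate 1 and 90% in replicate 2 were overlapped by a peak of the other library, against 43.2% and 83.2% of all peaks. Joined over both libraries, they formed 202 regions, of which 115 had a peak in both (56.9%, against 39.3% of all regions). The 87 regions seen in 1 library had heights from 0.261 to 2.43 with a median of 0.568, and no peak above 2.43 was seen in 1 library alone. Of the 115 shared regions 15 (13.0%) differed by over 2-fold in deposited height, not divided by the library median, against 21.8% of all shared regions. Of the 15, 13 were higher in replicate 1 and 2 in replicate 2. Over all shared regions, 375 of the 11991 that differed by over 2-fold were higher in replicate 2.

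**Figure D4:**
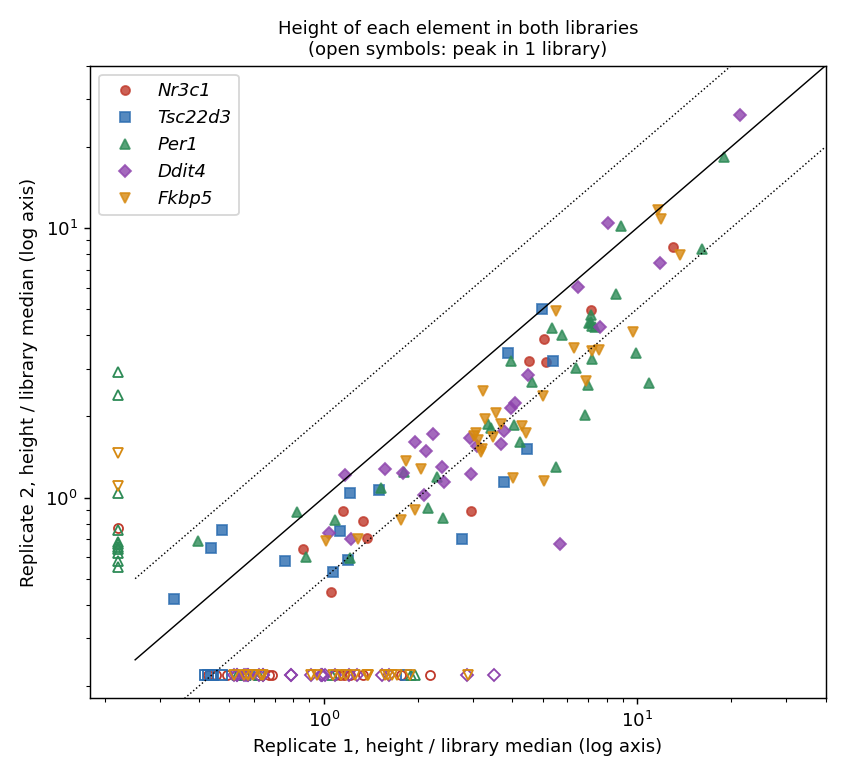
Height of each of the 202 joined regions divided by the median height of its library, replicate 1 against replicate 2, both on log axes. Filled symbols are the 115 regions in both libraries, open symbols along the edges are the 87 in 1 library, and the solid and dotted lines mark equal and 2-fold different values. These lines apply to the divided heights, whereas the count of regions over 2-fold apart in the text used undivided heights. The highest points are promoters of Ddit4 and Per1.

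Over the 5 territories together, the median promoter peak was higher than the median distal peak in both libraries, by little in replicate 2. Counting promoters of neighbouring genes too, the median height was 2.17 at promoters and 1.03 at distal sites in replicate 1, and 1.38 and 1.29 in replicate 2. The ratio of the medians was therefore 2.11 and 1.07 (1.59 ± 0.732, SD, n = 2). Over all genes the medians were 1.58 and 0.539 in replicate 1, and 1.67 and 0.689 in replicate 2. With promoters restricted to the 5 genes' own starts the ratio was 2.24 ± 0.281 (SD, n = 2). Taken gene by gene, with neighbouring promoters counted, promoter medians were above distal medians in both libraries at Nr3c1 and Ddit4. They were below at Per1 in replicate 1, with 2.47 against 3.45. In replicate 2 they were below at Tsc22d3, with 0.675 against 0.698, and at Fkbp5, with 1.38 against 1.48. In replicate 1 the distal median of the territories was above that over all genes, 1.03 against 0.539, and in replicate 2 it was 1.29 against 0.689. By gene, the distal median was 3.45 and 1.56 at Per1, 1.81 and 1.48 at Fkbp5, and 0.961 and 1.26 at Ddit4. It was nearer to that over all genes at Tsc22d3, with 0.570 and 0.698, and at Nr3c1, with 0.669 and 0.631. At Nr3c1 it was below that over all genes in replicate 2.
Over the 5 territories together, footprints were about as dense at distal as at promoter sites. Promoter regions of the territories held 11.7 and 13.8 footprints per kb and distal regions 10.4 and 13.6, a ratio of 1.07 ± 0.0713 (SD, n = 2). Within a flank of 25 kb the ratio was 0.981. Over all genes the densities were 12.8 and 13.7 at promoters, and 10.1 and 11.99 at distal sites. Single genes went opposite ways. At Ddit4, with 2 promoter peaks per library, promoter regions held 16.7 and 18.8 and distal regions 7.79 and 12.2. At Nr3c1 they held 12.9 and 16 against 8.13 and 9.13. Distal regions were the denser ones in both libraries at Fkbp5, 13.9 and 16.2 against 9.25 and 10.2. So they were at Tsc22d3, 10.2 and 10.4 against 8.60 and 9.29. At Per1 the order changed between the libraries.

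Sequence inside footprints was compared with that over all genes, and not every motif searched is described here. The ETS motif CCGGAA lay in 0.746% and 1.44% of promoter footprints of the territories, against 3.63% and 4.13% over all genes. In distal footprints the CCAAT box was below the share over all genes in replicate 1, 1.65% against 2.20%. It was above it in replicate 2, 4.56% against 2.13%. The GC box lay in 26 of 134 promoter footprints of the territories in replicate 1 (19.4%) and 25 of 139 in replicate 2 (18.0%), near the 15.6% and 17.4% over all promoter footprints. In distal footprints it lay in 23 of 364 (6.32%) and 14 of 241 (5.81%), against 1.96% and 3.41% over all distal footprints. The genes differed, from 0 of 34 and 0 of 6 distal footprints at Nr3c1 to 5 of 36 (13.9%) and 4 of 24 (16.7%) at Tsc22d3. At Per1 the share was 5.08% and 3.08%, the latter below that over all distal footprints. The receptor hexamer AGAACA lay in none of the promoter footprints, which allows a share of up to 2.24% and 2.16%, and in 2 distal footprints of each library (0.549% and 0.830%). Over all genes it lay in 0.453% and 0.355% of promoter footprints and in 1.28% and 1.00% of distal ones.
Response element matches of at most 2 mismatches lay in 6 of the 202 regions (2.97%), 3 at Ddit4, 2 at Fkbp5 and 1 in the Per1 territory, in a region 269 bp from the start of 9130213A22Rik. The last lay under a weak peak of 0.759 in replicate 1, and the peak of 0.492 in that region in replicate 2 did not reach it. Peaks of replicate 1 covered all 6 matches and peaks of replicate 2 covered 3 of them, the perfect Ddit4 match and both at Fkbp5. Over all regions 1.69% held such a match. Counted per length, the territories' regions held 10.6 matches per 100 kb, the territories as a whole 11.9, all regions 7.30 and the genome 10.4. The value for the regions was below that for the territories around them.

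Every listed partner gene of the receptor had a promoter peak, and fewer of the listed genes of steroid synthesis and metabolism had one. All 12 of 12 genes of the receptor complex and its chaperones had a promoter peak in both libraries. Here and below, genes are ranked by the mean of both libraries. The highest were at the co-chaperone genes Stip1, with 16.8 and 20.9, and Dnajb1, with 15.9 and 20.8. So did 12 of 12 coactivators and corepressors, led by the chromatin remodeller Smarca4, with 14.0 and 18.0, and the arginine methyltransferase Carm1, with 13.5 and 15.9. Ncoa2, a coactivator of the receptor, was above Carm1 in replicate 1 and below it in replicate 2, with 13.7 and 15.1. Of 30 further target genes 25 had one in both libraries, led by the thioredoxin inhibitor Txnip, with 13.7 and 17.9, and the clock gene Per2, with 14.0 and 14.0. In replicate 2 the zinc finger gene Klf13 was above Per2 with 14.6, beside 8.72 in replicate 1. None was found at Tat, Pck1 and Lcn2, genes best known from liver or inflammation. Anxa1 had a peak of 0.197 in replicate 1 alone and Mt1 one of 0.533 in replicate 2 alone.
Of 12 genes of steroid synthesis and metabolism 6 had a promoter peak in replicate 1 and 5 in replicate 2. The highest were at Srd5a1, which encodes a steroid reductase, with 18.6 and 15.6, and H6pd, which supplies cofactor to the enzyme that regenerates active glucocorticoid, with 7.37 and 7.33. Star, Hsd3b1, Cyp21a1 and Cyp11b1, genes of the steroid synthesis pathway, were among the 6 with none in either library. Of the same pathway, Cyp17a1 had peaks of 1.26 and 0.678, and Cyp11a1 had one of 1.58 in replicate 1 alone. All 6 related receptors had one in replicate 1 and 3 in replicate 2. Esrra, an orphan receptor, had 19.2 and 27.2. Nr3c2, the mineralocorticoid receptor that also binds corticosterone, had 2.35 and 2.05, lower than Nr3c1 in both libraries. Beside these counts stand the 63.4% and 57.8% of all genes.

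**Figure D5:**
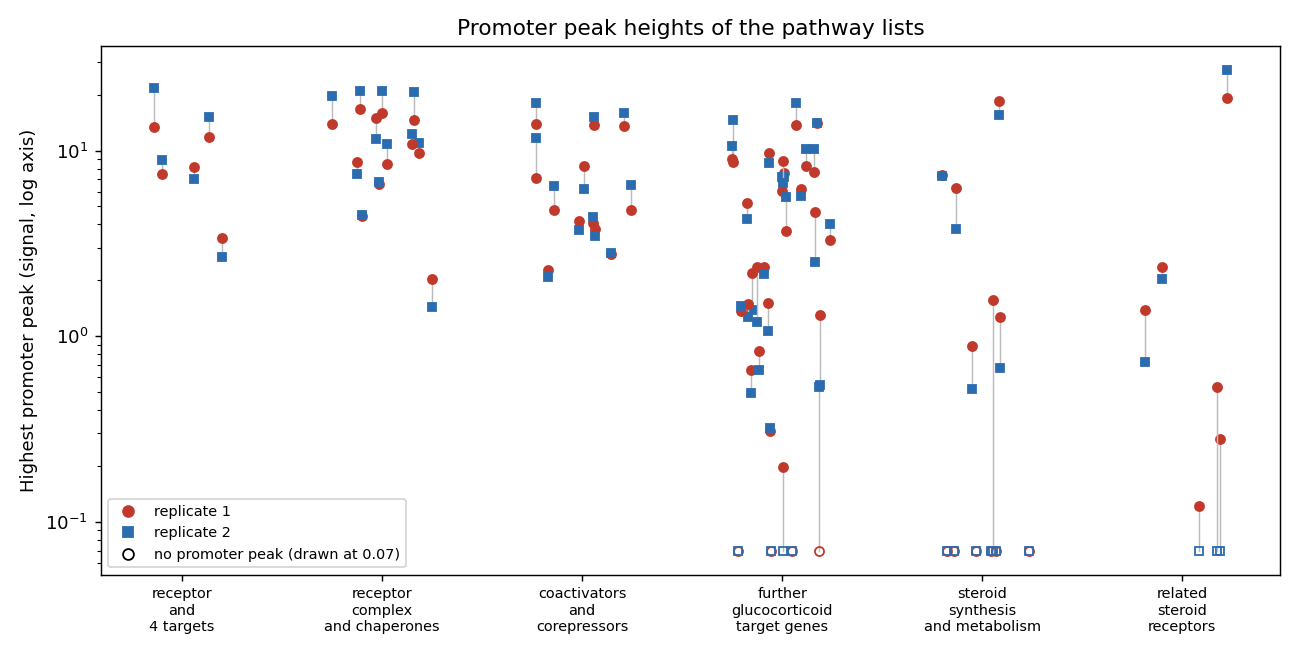
Height of the highest promoter peak of each gene (signal, log axis) in replicate 1 (circles) and replicate 2 (squares), joined by a line, for the receptor with its 4 targets and for 5 lists of pathway genes. Open symbols drawn at 0.07 mark genes without a promoter peak in that library. The chaperone and coactivator lists have no open symbol, and the steroid synthesis list has the most.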

How the data were processed

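DNase-seq of whole thymus in 2 libraries was analysed from the files the authors deposited. Peak height is the signal value of the deposited peak files, written per library on mm10 and made from that library's own alignments with a further project file, per the file headers and the README deposited with each sample. Of the pair of peak files per library, the one with more peaks was used. The footprint lists and the per-base false discovery rate (FDR) of cutting, a p-value or q-value under 0.05 deposited by the authors, were used as given. The aligner, callers, their thresholds, the read depth and any correction for the sequence preference of DNase I are not given in the sources used here, so no interval that needs the depth is given.

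Genes and starts came from GENCODE M21 and sequence from GRCm38.p6. Coordinates are 1-based. Overlap was counted from 1 bp. A promoter peak lay within 500 bp of a start and a distal peak over 1000 bp from every protein-coding start, and those between are in neither class. Motifs were searched on both strands in footprints extended by 5 bp on each side. Limits from a count of 0 use 3 counts and cover counting error only. The named regions were those within 1000 bp of a start of the 5 genes, up to 4 shared distal regions per gene with the highest mean height, and every region with a match, and in each pathway list the 2 genes with the highest mean and up to 4 without a promoter peak. Ncoa2, Klf13, Cyp17a1, Cyp11a1 and the Fkbp5 region at 28374541-28374800 were added after their values were seen. With a single group no test was made, and means are given with the SD over both libraries, a spread that may be technical. The members and lists were chosen with earlier results of these data known. Alternatives were the stricter peak file, each library alone, equal numbers of peaks, other flanks, windows, joining distances, overlap rules and mismatch limits. Scripts were tested on simulated data and ran in Python 3.11.15 with numpy 2.4.6 and matplotlib 3.10.9.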

Additional observations from a re-analysis of the deposited data

How the results depend on the processing

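The 9 results were recomputed under the alternatives, which gave 64 values, of which 3 moved and 1 turned its direction. The 5 promoter peaks were found under every alternative run, and the 6 Nr3c1 start clusters under all but the stricter peak file, which gave 5. RefSeq starts, an alternative chosen after seeing the data, also gave 6 clusters with a peak. The number of territory regions with a response element match was 6 and moved to 2 with at most 1 mismatch and to 30 with at most 3, since the limit sets how many sequences match. It ranged from 3 to 6 when either library was left out, the 3 being the value without replicate 1. The ratio of promoter to distal footprint density was 1.07 and turned to 0.981 with a flank of 25 kb, and the cause was not tested. The ratio of promoter to distal median height ranged from 1.07 without replicate 1 to 2.24 with promoters restricted to the 5 genes' own starts. Without replicate 2 it was 2.11. The share of overlapped peaks cannot be had from a single library. No paired analysis was possible because there is a single group. Replicate 2 lists fewer peaks, with heights down to 0.0463 across the genome, against 0.00579 in replicate 1. Among distal peaks of the territories the lowest heights were 0.348 in replicate 2 and 0.208 in replicate 1. Why a region of replicate 1 is absent from replicate 2 was not tested.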

Other observations

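The promoters of genes beside Per1 were open too. The region at the start of Borcs6, a lysosome positioning gene, had a height of 5.57 in replicate 1 and 8.45 in replicate 2. Tmem107, a gene of the ciliary transition zone, had 5.36 and 4.72 at its start, the mitotic kinase gene Aurkb 4.45 and 3.95, and the vesicle fusion gene Vamp2 3.61 and 3.31. All 4 were below the peak by the longest Per1 transcript in both libraries. Hes7, a gene of the segmentation clock, had peaks of 0.249 and 0.574 at a start.

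At Tsc22d3 the territory held 2 response element matches with 1 mismatch, 29107 and 15301 bp downstream of the nearest start, at 6692 and 6388 bp from the nearest region. None of their bases had an FDR under 0.05 in either library.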
